A study of Mus musculus with 4 samples.

Results

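The genes described here are the 4 CDC-like kinases, Clk1, Clk2, Clk3 and Clk4, and 6 genes known for retained introns or for splicing that the study assayed, Pnisr, Prpf4b, Ube2v2, Rit1, Ogt and Son. They were taken by symbol from a table of 16449 genes, and all 10 were found in it and all 10 passed the filter on low counts that left 5878 genes for testing. None of the 10 passed the threshold of edgeR's quasi-likelihood test between the groups (Benjamini-Hochberg adjusted p below 0.05). The values below are abundances of whole genes. Reads that keep an intron and reads that splice it were not separated, so splicing was not analysed here.

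The data come from Nanopore long-read sequencing of poly(A)-enriched RNA from the dorsal and medial palliums of the mouse at E11.5, the wall of the forebrain that later forms neocortex and hippocampus. There were 2 WT libraries and 2 libraries labelled Tut1 knockout. With them the study examined the role of Tut1, which tails the U6 snRNA of the spliceosome with uridines, in splicing in vivo. The study gives both groups the floxed Tut1 allele on both chromosomes (Tut1 f/f), and WT is taken here as the group free of Cre. The group labelled knockout carried Emx1-Cre, which is active in the stem cells of the pallium and their progeny and leaves other cells of the tissue unrecombined. The number of embryos behind each library and their littermate relations are not stated, so p-values measure the spread between these libraries only.

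CLK kinases phosphorylate the arginine and serine rich SR proteins, which frees these from nuclear speckles to take part in choosing splice sites. Their own transcripts are a textbook case of detained introns, introns that stay in a finished poly(A) transcript held in the nucleus, and these introns are spliced out when the kinases are blocked or cells are stressed. Ogt carries an intron of the same kind that responds to the level of the sugar modification its enzyme makes, and Son, Pnisr and Prpf4b encode proteins of speckles and of the spliceosome.

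Detained introns were not measured here, and the annotation was used only to find introns that an exon of another annotated transcript of the same gene spans. In GENCODE M21 on build GRCm38, all 4 CLK genes held a coding exon, number 4 of the transcript used, whose flanking introns are both included in a transcript of the retained intron type. The exon lay at chr1:58420121-58420211 in Clk1 (minus strand, 91 bases), at chr3:89169618-89169702 in Clk2 (plus strand, 85 bases, or 88 from a second annotated acceptor), at chr9:57758627-57758723 in Clk3 (minus strand, 97 bases) and at chr11:51273078-51273168 in Clk4 (plus strand, 91 bases). None of these lengths is a multiple of 3, each leaving a remainder of 1, and transcripts that skip the exon are annotated in all 4 genes. It was skipped in 3 of 13 Clk1 transcripts, 1 of 11 Clk2 transcripts, 1 of 9 Clk3 transcripts and 3 of 14 Clk4 transcripts, and each gene had at least 1 skipping transcript annotated as a target of nonsense-mediated decay. The introns before the exon measured 871, 694, 2100 and 1055 bases in Clk1 to Clk4, and those after it 387, 346, 276 and 391 bases.

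**Figure D1:**
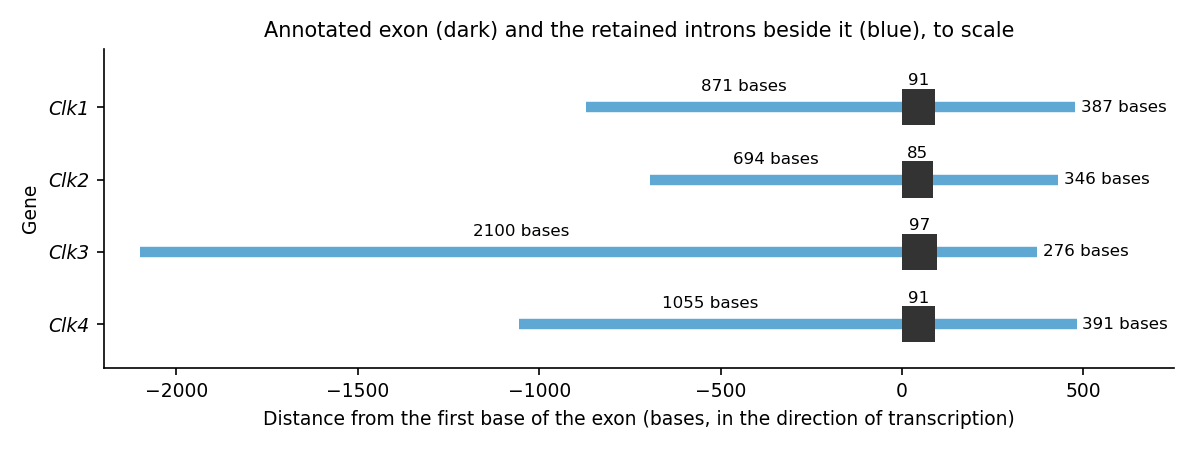
Map of the coding exon (dark box) and its 2 retained introns (blue lines) in each CLK gene, to scale, with the distance from the first base of the exon in bases along the x axis. The intron after the exon is the shorter one in all 4 genes, 276 to 391 bases against 694 to 2100.

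Among the donor and acceptor sites of the introns beside this exon, the 4 genes share the donor of the intron after it most closely. These donor sites are shown for that reason. Each is written 5′ to 3′ on the strand of the gene, with the last 3 exon bases in lower case and the first 6 intron bases in capitals, read from the GENCODE transcripts that retain the intron.
Clk1: gatGTATAG
Clk2: gatGTACAA
Clk3: gatGTACAG
Clk4: gatGTATAG
The sites of Clk1 and Clk4 were identical over all 9 bases, and the other pairs shared 7 or 8 of 9. The donor sites before the exon were less alike, with 3 to 8 of 9 bases shared between pairs.
Clk1: gggGTATGA
Clk2: tcaGTGAGT
Clk3: tcgGTGAGT
Clk4: tcgGTATGA
The acceptor sites at the end of the intron after the exon are printed with 20 intron bases in lower case and the first 3 bases of the next exon in capitals, and pairs shared 12 to 14 of 23 bases.
Clk1: taattattcctcttttttagATG
Clk2: cctactttctttcgtttcagATG
Clk3: cagcttcttctttctcacagATG
Clk4: ctttctctcccttactttagATG

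Across the 10 genes, 24 introns that a coding transcript splices lay inside an exon of another annotated transcript, in 8 of the genes (80%). The same held for 2565 of 5438 tested protein-coding genes that have an intron (47.2%). Most of the 10 genes were listed because they are known for retained introns, so the shares describe that choice and are no finding. Of the 24, Clk1 and Clk4 held 5 each, Clk2 4, Clk3 and Pnisr 3, Rit1 2, and Ube2v2 and Ogt 1. When only transcripts of the retained intron type were counted, it was 18 introns in 7 genes (70%), against 35.3% of the tested genes. Prpf4b and Son had none by either definition, although 2 transcripts of the retained intron type are annotated for each of them. The Ogt intron of this definition lay near the start of the gene, at chrX:101640111-101640217 (plus strand, 107 bases) and was retained in 3 transcripts, of the protein-coding, processed and retained intron types. It is not to be taken for the detained intron for which Ogt is known.

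The 24 introns had 22 distinct donor sites, all of which began with GT. The perfect matches GTAAGT and GTGAGT made up 6 of the 22 sites (27.3%), against 22% of 9271 donors of such introns in all protein-coding genes. G as the fifth intron base was found in 13 of 22 (59.1%) against 75.0%, and A in 6 of 22 (27.3%) against 8.69%. All 4 CLK donors after the exon were among those with A. The run GATGTA, spanning the exon end and chosen after the CLK sites were seen, stood at these 4 donors (18.2% of 22) and at 35 of the 9271 (0.378%). Donors of the other genes are given for comparison, in the same format.
Pnisr: cagGTTTGT
Pnisr: aagGTACAT
Pnisr: aagGTAGTA
Ube2v2: cagGTCGGT
Rit1: gtgGTAGGT
Rit1: cagGTACTA
Ogt: gagGTAGAT
They lie in the annotated introns chr4:21857369-21859083, chr4:21869616-21870351 and chr4:21874673-21874912 (Pnisr, plus strand), chr16:15593759-15594459 (Ube2v2, minus strand), chr3:88717471-88717601 and chr3:88726069-88726279 (Rit1, plus strand), and the Ogt intron above. These are descriptions of the annotation and say nothing of how often an intron was kept in these libraries.

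Few reads per library entered the gene table. The counts lie far under the numbers of reads given for these libraries in the study, for a reason that is not stated, so depth here means counted reads. Their totals ran from 305642 to 397150, and the median tested gene had 19 to 25 counts in a library. Tut1 was counted 6 and 11 times in the WT libraries and 29 and 25 times in those labelled knockout, which edgeR fitted as 1.71 ± 0.40 on the log2 scale (SE, adjusted p = 0.0113). The direction is against the label, and a count over the whole gene does not show whether the floxed part was lost, so the second group is called the libraries labelled knockout throughout. Among other genes, singled out after their values were seen, the p53 targets Cdkn1a (5 and 13 counts in WT, 37 and 27 in the other group, edgeR adjusted p = 0.0047) and Ccng1 (3 and 3, then 19 and 15, adjusted p = 0.00728) were higher there. Another target, Bax, was not called (20 and 14, then 48 and 25, edgeR adjusted p = 0.0602). The label was not tested with these genes. Xist was counted 64 times in WT replicate 1 and 0 times in each of the other 3 libraries, while 4 Y-linked genes together had 0, 71, 78 and 41 counts, so WT replicate 1 differed in sex from the others. Summed markers of the pallium lay at 1351.9 to 1684.1 CPM (counts scaled to a common library size) in WT and at 728.2 to 861.4 CPM in the libraries labelled knockout, with 1 of 6 genes called. Neuron markers differed the other way, from 348.3 to 382.7 CPM in WT and from 788.4 to 906.2 CPM in the other group, with 2 of 5 called. Microglia markers ranged from 66.6 to 75.4 CPM in WT and from 211.9 to 239.2 CPM in the other group, with 2 of 3 called, while C1qb had at most 1 count in any library. Mesenchyme markers spanned 66.6 to 206.7 CPM in WT and 257 to 374.7 CPM in the libraries labelled knockout (1 of 4 called), blood markers 793.6 to 1103.3 and 861.4 to 1259.6 CPM (1 of 4, Hbb-bh1, which was lower, while Hba-x had a positive log2 fold change of 1.07 that was not called), endothelium markers 33.3 to 39.1 and 62.5 to 74.4 CPM (0 of 3), and subpallium markers 0 to 27.9 and 52.1 to 95.7 CPM (1 of 3, with Dlx2 at 0 in both WT libraries). Emx1 itself had 6 and 7 counts in WT against 1 and 2 in the libraries labelled knockout. The part of these differences in the values below was not tested, and in bulk tissue fewer cells of a type and less RNA per cell cannot be told apart.

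Against this background, edgeR called 121 of the 5878 genes (2.06%), 82 higher (1.4%) and 39 lower (0.663%) in the libraries labelled knockout, and 0 of the 10 genes described here. Scaling by total counts alone gave 109 higher and 27 lower. The count of all genes was lower in each fit without 1 library, and least so without WT replicate 2. Such a fit leaves 1 library in a group. At an unadjusted p below 0.05 the count was 0 of 10, against 834 of all genes (14.2%). Limma-voom also called 0 of the 10, and DESeq2 called 0 of the 6 to which it gave an adjusted p, which leaves out Clk2, Clk3, Ube2v2 and Rit1. Their log2 fold changes were negative in 7 and positive in 3, against 3032 negative and 2846 positive over all tested genes. Their median was -0.08 against -0.01. Their absolute size had a median of 0.18 against 0.29. The 10 genes were counted more often than most, with a median of 53.4 counts per library against 21.8, and their median standard error was 0.26 against 0.35. For 6 of them, Clk1, Clk4, Pnisr, Prpf4b, Ogt and Son, the 95% interval of the fold change lay within 2-fold in both directions (60%, against 49.5% of all tested genes). For the other 4, Clk2, Clk3, Ube2v2 and Rit1, a 2-fold difference was not excluded by the interval at this depth.

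**Figure D2:**
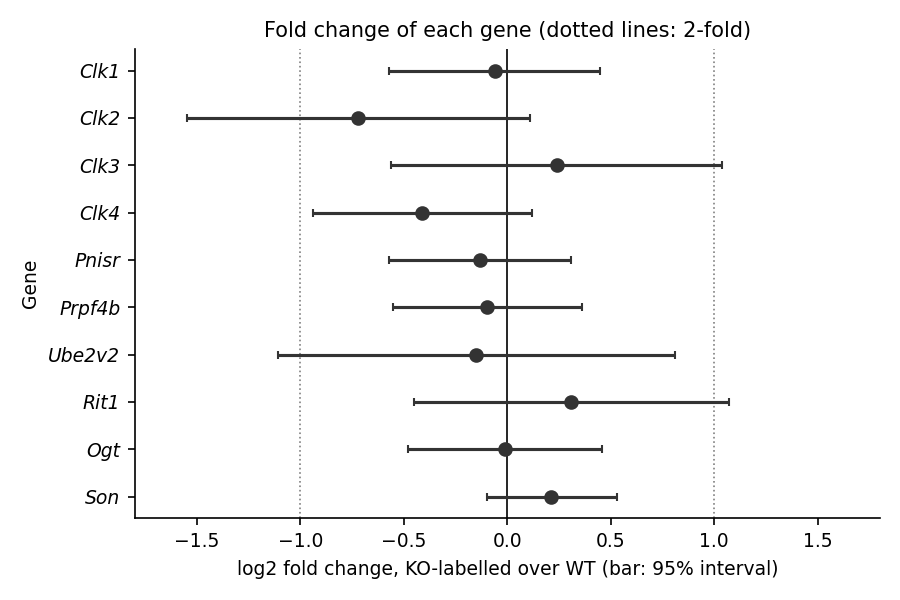
Fold change of each gene in the libraries labelled knockout over WT on a log2 scale (points), with the 95% interval of the edgeR fit (bars, 2 libraries per group) and 2-fold marked by dotted lines. The interval of each of the 10 genes includes 0, and those of Clk2, Clk3, Ube2v2 and Rit1 cross a 2-fold line.

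Clk1, at chr1:58410189-58424066 (minus strand, ENSMUSG00000026034), was counted 58 and 57 times in WT replicates 1 and 2 and 74 and 34 times in replicates 1 and 2 labelled knockout. Scaled to library size, these were 175.7 and 159.2 CPM in WT, and 196.7 and 118.1 CPM in the libraries labelled knockout. The highest and the lowest level both came from libraries labelled knockout, on either side of the WT pair. The group means were 167.4 ± 11.7 CPM and 157.4 ± 55.6 CPM (SD, n = 2). The log2 fold change was -0.06 ± 0.25 (SE, edgeR adjusted p = 0.95). Its direction followed single libraries, at -0.50 without replicate 1 labelled knockout and 0.23 without replicate 2 labelled knockout.

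Clk4, the closest relative of Clk1 in the family, at chr11:51261730-51281766 (plus strand, ENSMUSG00000020385), had 46 and 72 counts in WT against 57 and 29 in the libraries labelled knockout. These were 139.3 and 201.1 CPM against 151.5 and 100.7 CPM. Replicate 2 labelled knockout was the lowest of the 4, as for Clk1. Replicate 1 labelled knockout lay between the WT libraries. The fitted log2 fold change was -0.41 ± 0.26 (95% interval -0.94 to 0.12, edgeR adjusted p = 0.525), and it ran from -0.13 without WT replicate 2 to -0.76 without replicate 1 labelled knockout.

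Clk2, at chr3:89164795-89176921 (plus strand, ENSMUSG00000068917), was counted 17 and 19 times in WT against 12 and 9 times in the libraries labelled knockout. The levels were 51.5 and 53.1 CPM in WT and 31.9 and 31.3 CPM in the other group. The groups did not overlap, and replicates lay close together within each, 52.3 ± 1.11 CPM against 31.6 ± 0.446 CPM (SD, n = 2). The counts are low, however, and the exact Poisson intervals of all 4 libraries overlapped, at 30 to 82.4 and 32 to 82.9 CPM in WT and 16.5 to 55.7 and 14.3 to 59.3 CPM in the libraries labelled knockout. Clk2 had the most negative log2 fold change of the 10 genes, -0.72 ± 0.41 (95% interval -1.55 to 0.11, unadjusted p = 0.0857, edgeR adjusted p = 0.452).

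Clk3, at chr9:57750624-57765860 (minus strand, ENSMUSG00000032316), was counted 23 and 10 times in WT against 24 and 14 times in the libraries labelled knockout, or 69.7, 27.9, 63.8 and 48.6 CPM. The spread between the WT libraries spanned the other group. The log2 fold change was 0.24 ± 0.40 (edgeR adjusted p = 0.858) and was 1.01 without WT replicate 1 and -0.30 without WT replicate 2. Clk3 shares 1284 exon bases with Edc3 on the opposite strand. Whether the counting used strand is not stated, so reads of the pair may have been exchanged, and the Clk3 values are uncertain for that reason. Edc3 was counted 15 to 22 times per library.

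The 4 kinases were summed in each library to ask whether the family as a whole differed. The sums were 436.2 and 441.3 CPM in WT against 443.8 and 298.7 CPM in the libraries labelled knockout. WT replicates 1 and 2 and replicate 1 labelled knockout were thus nearly equal, and replicate 2 labelled knockout alone was low. Group means were 438.7 ± 3.63 and 371.2 ± 103 CPM (SD, n = 2), a log2 ratio of -0.24 that changed to 0.02 without replicate 2 labelled knockout and to -0.55 without replicate 1 labelled knockout. The sum is given as a description, with no test. The low library was also the shallowest of the 4, with 86 CLK counts.

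**Figure D3:**
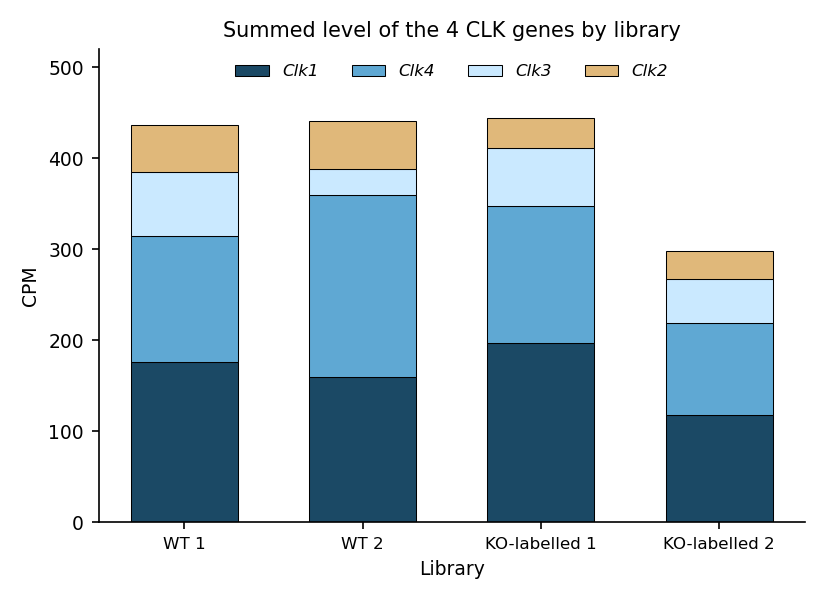
Summed level of Clk1, Clk4, Clk3 and Clk2 in each library, in CPM on a linear axis from 0, with 1 bar per library and 1 segment per gene. The first 3 bars reach 436.2 to 443.8 CPM and the bar of replicate 2 labelled knockout 298.7 CPM.

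The balance of the 2 most abundant kinases was compared between libraries. Of the counts of Clk1 and Clk4 together, whose longest coding transcripts differ little (1.796 and 1.949 kb), Clk1 made up 55.8% in WT replicate 1 (95% Clopper-Pearson interval 45.7 to 65.5%) and 44.2% in WT replicate 2 (35.5 to 53.2%). In the libraries labelled knockout it was 56.5% (47.6 to 65.1%) and 54% (40.9 to 66.6%). All 4 intervals overlapped. Intervals of this kind cover counting error only.

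Son encodes a large SR-type scaffold of nuclear speckles that is needed for splicing of introns with weak sites. The gene lies at chr16:91647506-91679221 (plus strand, ENSMUSG00000022961) and was the most often counted of the 10, at the 97th percentile of mean CPM over all tested genes. It reached 210 and 250 counts in the WT pair and 254 in either library labelled knockout, or 636.1 and 698.3 CPM against 675 and 882.2 CPM. Replicate 1 labelled knockout lay between the WT libraries, and replicate 2 above them. The exact Poisson interval of replicate 2 (777 to 997.6 CPM) did not meet that of replicate 1 (594.5 to 763.3 CPM), so the libraries labelled knockout differed from each other by more than counting error. The log2 fold change was 0.21 ± 0.16 (95% interval -0.10 to 0.53, edgeR adjusted p = 0.592). It was 0.40 without replicate 1 labelled knockout and 0.02 without replicate 2 labelled knockout.

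Pnisr, which encodes an SR-like protein that binds the speckle protein pinin, lies at chr4:21847583-21876475 (plus strand, ENSMUSG00000028248). It was counted 76 times in each WT library and 75 and 59 times in the libraries labelled knockout. The levels were 230.2 and 212.3 CPM against 199.3 and 204.9 CPM, with both libraries labelled knockout just below the WT pair. The difference was small, -0.13 ± 0.22 on the log2 scale (95% interval -0.57 to 0.31, edgeR adjusted p = 0.86).

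Prpf4b encodes a kinase of the spliceosome that acts on the tri-snRNP before catalysis and carries a kinase domain related to that of the CLK family. At chr13:34875302-34906064 (plus strand, ENSMUSG00000021413), it was counted 73 and 72 times in WT against 66 and 64 times in the libraries labelled knockout. These were 221.1, 201.1, 175.4 and 222.3 CPM. Replicates 1 and 2 labelled knockout gave the lowest and the highest level. The log2 fold change was -0.10 ± 0.22 (95% interval -0.55 to 0.36, edgeR adjusted p = 0.905).

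Ogt encodes the only enzyme that attaches single N-acetylglucosamine sugars to nuclear and cytosolic proteins. It lies on the X chromosome, at chrX:101640060-101684351 (plus strand, ENSMUSG00000034160). Counts were 69 and 60 in WT against 71 and 53 in the libraries labelled knockout, or 209, 167.6, 188.7 and 184.1 CPM, and WT replicate 1, the library with Xist counts, was the highest. The group means were 188.3 ± 29.3 and 186.4 ± 3.25 CPM (SD, n = 2), and the log2 fold change was -0.01 ± 0.23 (95% interval -0.48 to 0.46, edgeR adjusted p = 0.994). Without WT replicate 1 it was 0.15 (adjusted p = 0.926, where alternatives ranged from 0.881 to 1).

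Ube2v2 and Rit1 stand outside the splicing machinery. Ube2v2 encodes an inactive partner of the ubiquitin-conjugating enzyme Ube2n and directs it to lysine 63 chains. At chr16:15552077-15595773 (minus strand, ENSMUSG00000022674) it had the fewest counts of the 10, 15 and 8 in WT against 11 and 9 in the libraries labelled knockout. The levels of 45.4, 22.3, 29.2 and 31.3 CPM placed both libraries labelled knockout between the WT libraries. Its interval was the widest, with a log2 fold change of -0.15 ± 0.48 (95% interval -1.11 to 0.81, edgeR adjusted p = 0.93). It was 0.42 without WT replicate 1 and -0.60 without WT replicate 2.

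Rit1, a small GTPase of the RAS family that feeds the MAPK cascade, lies at chr3:88716838-88731049 (plus strand, ENSMUSG00000028057). It was counted 15 and 16 times in WT against 20 and 17 times in the libraries labelled knockout, or 45.4 and 44.7 CPM against 53.1 and 59 CPM. The libraries labelled knockout both lay above the WT pair. The log2 fold change was 0.31 ± 0.38 (95% interval -0.45 to 1.07, edgeR adjusted p = 0.804).

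In all, 3 of the 10 genes had groups that did not overlap in CPM, against 42.9% of all tested genes. Rit1 was the 1 gene with both libraries labelled knockout above WT (22.1% of all tested genes), and Clk2 and Pnisr were the 2 with both below (20.8% of all tested genes). These counts are near or under the background.

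**Figure D4:**
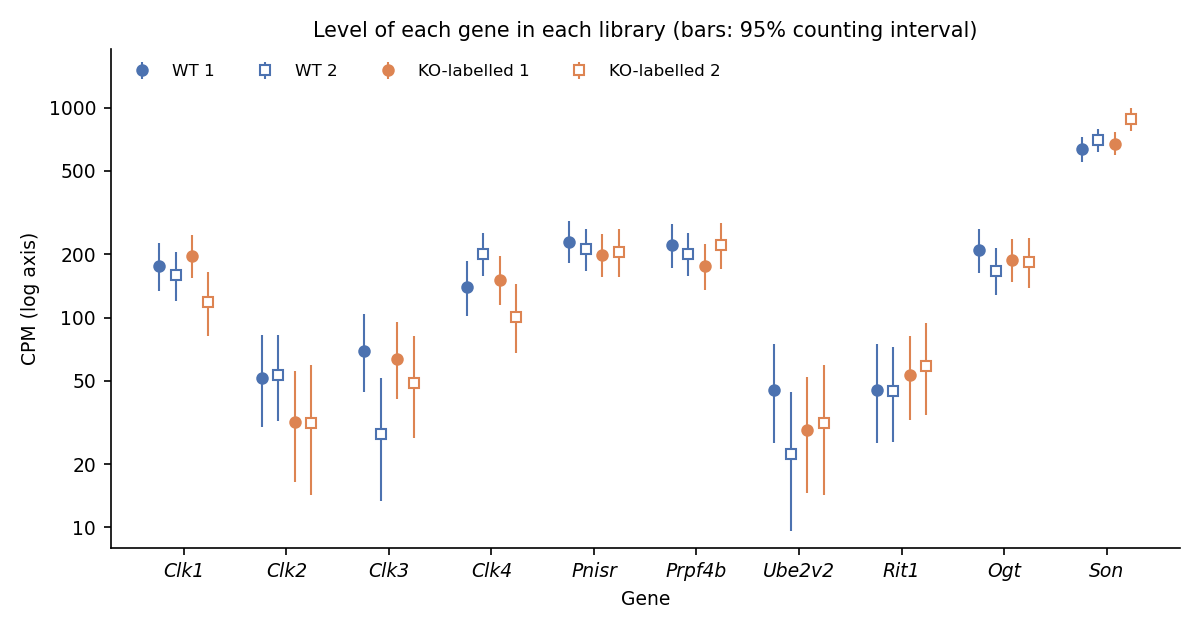
Level of each gene in each library in CPM on a log axis, with exact 95% Poisson intervals as bars (filled symbols, replicate 1, open symbols, replicate 2). Levels are to be compared between libraries of 1 gene, since whether CPM of these long reads needs scaling by length was not tested. In Clk2 both libraries labelled knockout lie below both WT libraries, with intervals that overlap.

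Per kilobase of the longest coding transcript, the order of WT levels was Clk1 (93.2 ± 6.49 CPM per kb), Clk4 (87.3 ± 22.4), Son (76.4 ± 5.04), Pnisr (48.7 ± 2.79), Rit1 (37.4 ± 0.438), Ogt (35.0 ± 5.44), Prpf4b (26.9 ± 1.8), Clk2 (24.3 ± 0.517), Clk3 (19.6 ± 11.8) and Ube2v2 (8.06 ± 3.88 CPM per kb, SD, n = 2). Neighbours from Clk1 to Son, from Rit1 to Ogt, and Clk3 with Prpf4b, Clk2 and Ube2v2, did not differ beyond their spread. The levels per kilobase of Clk1 and Clk4 were thus several times those of Clk2 and Clk3. In the libraries labelled knockout Son came first (89.2 ± 16.8 CPM per kb), followed by Clk1 (87.6 ± 30.9), Clk4 (64.7 ± 18.4), Rit1 (46.6 ± 3.46) and Pnisr (44.5 ± 0.873 CPM per kb). Neighbours from Son to Pnisr, and Prpf4b with Clk3, did not differ beyond their spread there. Ogt (34.6 ± 0.604 CPM per kb), Prpf4b (25.4 ± 4.23), Clk3 (22.5 ± 4.29), Clk2 (14.7 ± 0.207) and Ube2v2 (7.19 ± 0.341 CPM per kb) followed. Changes of rank between the groups were not tested. A long read can count once per molecule whatever its length, which lowers long genes such as Son and Prpf4b on this scale. Without division by length, Son came first in WT (667.2 ± 43.97 CPM, SD, n = 2). Pnisr (221.2 ± 12.68), Prpf4b (211.1 ± 14.15), Ogt (188.3 ± 29.29), Clk4 (170.2 ± 43.68) and Clk1 (167.4 ± 11.65 CPM) followed. Neighbours from Pnisr to Clk1 did not differ beyond their spread.

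Genes that work with these 10 were followed in 9 lists, 104 distinct genes of which 80 were tested. By edgeR 0 were called, against 2.06% of all tested genes, and 2 had an unadjusted p below 0.05, against 14.2% of all tested genes. DESeq2 called 0 of the 57 to which it gave an adjusted p, and limma-voom called 1 of the 80, Prpf3. The median log2 fold change of the 80 was -0.13, against -0.01 over all tested genes. Of all tested genes, 3032 of 5878 had a negative value, 20.8% had both libraries labelled knockout below WT and 22.1% both above.

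**Figure D5:**
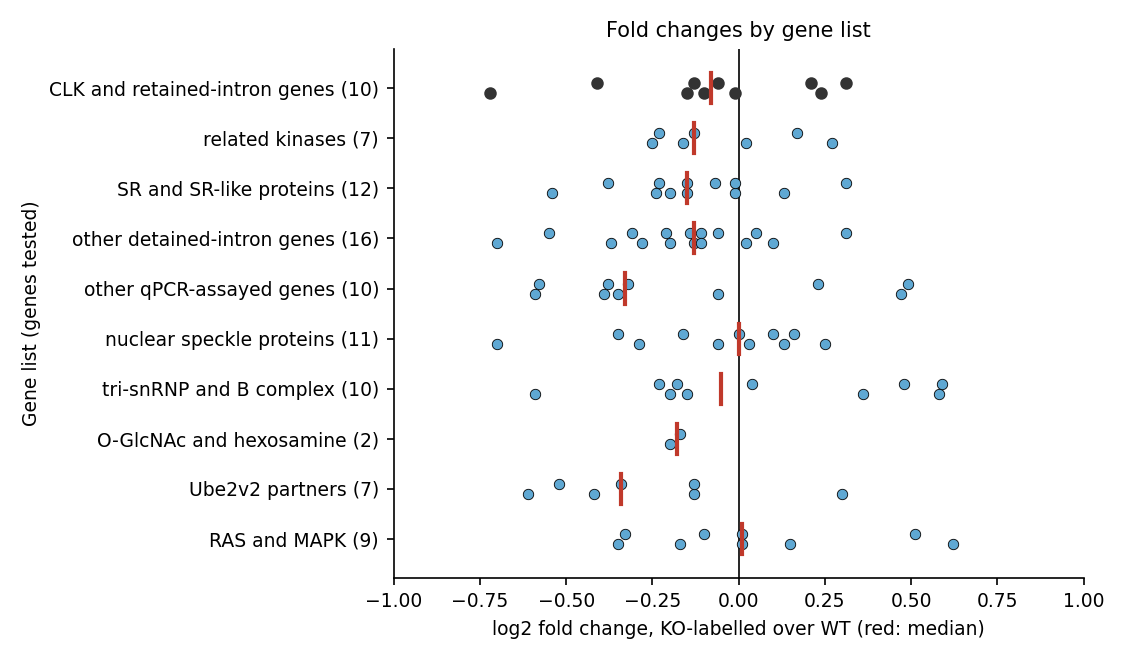
Log2 fold change of each tested gene (points) in the libraries labelled knockout over WT, with 1 row per gene list, the number tested in parentheses and the median in red. List medians lie between -0.34 and 0.01, beside -0.08 for the 10 CLK and retained-intron genes and -0.01 for all tested genes.

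The SR proteins are the substrates of the CLK kinases. Of 12 tested, 10 had a negative and 2 a positive log2 fold change, with a median of -0.15, and 0 were called. Srsf10, a splicing repressor when dephosphorylated, had 278.7 and 318.4 CPM in WT against 239.2 and 218.8 CPM in the libraries labelled knockout, which both lay below WT (-0.38 ± 0.20, edgeR adjusted p = 0.407). Srsf7 gave 957.2 and 896.6 CPM against 781.3 and 795.4 CPM (-0.23 ± 0.14, adjusted p = 0.497).

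Other kinases that act on SR proteins or belong to the same branch of the kinase tree gave 3 positive and 4 negative values among 7 tested, with a median of -0.13. Their smallest p was that of Cdk11b, at 0.27 ± 0.19 on the log2 scale (edgeR adjusted p = 0.58). Hipk2 and Cdk13, at the same unadjusted p of 0.341, followed with -0.25 ± 0.26 and -0.23 ± 0.24.

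Of 16 further genes known for retained or detained introns, 12 had a negative and 4 a positive value, with a median of -0.13. Luc7l3, which encodes a U1 snRNP-associated protein, was at 60.6 and 78.2 CPM in WT against 23.9 and 66 CPM in the libraries labelled knockout, and the groups overlapped (-0.70 ± 0.40, edgeR adjusted p = 0.446). Over the tested protein-coding genes with an intron, the 2565 with an annotated retained intron had a median log2 fold change of -0.03 and 37 calls (1.44%). The 2873 without had 0.01 and 71 calls (2.47%).

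The other genes whose splicing was assayed by qPCR had 7 negative and 3 positive values among 10 tested, with a median of -0.33. Beside Srsf10, the smallest p belonged to Kif3a, a kinesin motor subunit of cilia, at 103 and 89.4 CPM in WT against 148.8 and 118.1 CPM in the libraries labelled knockout (0.49 ± 0.27, edgeR adjusted p = 0.442). The study chose these genes for splicing in this model, and the list is not independent evidence of a direction.

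Speckle proteins beside Son and Pnisr gave 6 positive and 5 negative values among 11, with a median of 0. Acin1 had -0.35 ± 0.18 (edgeR adjusted p = 0.375) and Thrap3 -0.29 ± 0.16 (adjusted p = 0.445), in each case with both libraries labelled knockout below WT.

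The proteins of the tri-snRNP and B complex, among which Prpf4b works, held the nearest to a call. Prpf3, a component of the U4/U6 snRNP, was counted 147 and 131 times in WT against 231 and 173 times in the libraries labelled knockout, or 445.3 and 365.9 CPM against 613.9 and 600.9 CPM. The groups did not overlap, and the log2 fold change was 0.59 ± 0.17 (95% interval 0.25 to 0.92, unadjusted p = 0.00116, edgeR adjusted p = 0.0548), just outside the threshold of 0.05. It was called when libraries were scaled by total counts alone, by limma-voom and by the bias-adjusted form of edgeR's test. Prpf19, the ubiquitin ligase of the spliceosome, had 157.5 and 287.7 CPM in WT against 135.5 and 163.2 CPM in the libraries labelled knockout, which overlapped (-0.59 ± 0.25, unadjusted p = 0.0247, edgeR adjusted p = 0.249). The 10 tested genes of this list split into 5 positive and 5 negative, with a median of -0.05.

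Of the O-GlcNAc cycle beside Ogt, 2 of 6 genes, Hcfc1 and Oga, passed the filter, with a median of -0.18. Hcfc1, a protein that Ogt cleaves, had -0.17 ± 0.15 (edgeR adjusted p = 0.69), and Oga, the enzyme that removes the sugar, had -0.20 ± 0.34 (adjusted p = 0.873). Partners of Ube2v2 in lysine 63 chains gave 6 negative values of 7 tested, with a median of -0.34. Rad18, a ubiquitin ligase of damage tolerance, was at 75.7 and 81 CPM in WT against 50.5 and 52.1 CPM in the libraries labelled knockout (-0.61 ± 0.34, adjusted p = 0.445), and Rnf8, a ligase at DNA breaks, had -0.34 ± 0.22 (adjusted p = 0.539). Both had their libraries labelled knockout below WT. In the RAS and MAPK list, 5 of 9 tested values were positive and 4 negative, with a median of 0.01. Hras had 0.62 ± 0.41 (edgeR adjusted p = 0.553), with both libraries labelled knockout above WT.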

How the data were processed

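The authors sequenced poly(A)-enriched RNA of 4 libraries on a Nanopore instrument, aligned reads with minimap2 to the Ensembl mouse transcriptome (build GRCm38 in the submitters' processing notes) and processed them with FLAIR. They deposited raw read counts per gene, without normalization. The summing of isoforms, the handling of reads that match more than 1 gene, and the use of strand are not given in the sources used here. Groups came from the sample labels. Symbols, positions, transcript types and splice sites came from GENCODE M21 on GRCm38, which matched 16429 identifiers (99.9%) and left 20 unmatched. Oga was matched through its older symbol in RefSeq. Coordinates are 1-based.

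Counts were fitted over the whole table with edgeR 4.0.16 (R 4.3.3): filterByExpr defaults (minimum count 10, minimum total 15), TMM scaling, glmQLFit and glmQLFTest, two-sided, no covariate, Benjamini-Hochberg adjustment over 5878 genes, threshold 0.05. The biological coefficient of variation was 10.5%, and 37.5 prior degrees of freedom joined 2 residual ones, so the standard errors lean on the other genes. Standard errors are absolute log2 fold changes over the square root of F, and the 95% interval uses 39.5 degrees of freedom. CPM is over the counts of tested genes, TMM-scaled. A floor of 3 counts corresponds to 7.97 to 10.4 CPM and, like the Poisson intervals, covers counting error only. An intron was called retained where an exon of another annotated transcript of the gene spanned it. Replicates of a group differed by more than sampling noise (chi-square per degree of freedom 1.5 for the WT pair and 1.43 for the pair labelled knockout).

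The 10 genes and the lists were chosen with earlier results of these data known. All 10 are named. From each list the genes called were to be named, and otherwise the 2 of smallest p. Some genes that this rule names are not reported here. The alternatives tried were scaling by median of ratios or by total counts, dropping the filter, keeping genes with 10 counts in 2 libraries, DESeq2 1.42.0, limma-voom (limma 3.58.1), the bias-adjusted quasi-likelihood, a replicate block, each library left out, and thinning to the smallest library. With a library left out, its partner stood alone and was taken to vary as the other group does.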

Additional observations from a re-analysis of the deposited data

How the results depend on the processing

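None of the 10 genes was called under those of the 13 alternatives that gave it an adjusted p, and their smallest adjusted p was 0.388 (Clk4 without WT replicate 1). Of 129 fold changes recomputed, 119 kept their direction and 10 turned, none of them called, and Clk2, Clk4, Pnisr, Rit1 and Son kept 1 direction throughout. Ogt turned to 0.04 with total counts alone, 0.00 with limma-voom, 0.04 after thinning, 0.15 without WT replicate 1 and 0.01 without replicate 2 labelled knockout. Clk1 turned to 0.00 without WT replicate 1 and 0.23 without replicate 2 labelled knockout, Clk3 to -0.30 without WT replicate 2, Prpf4b to 0.08 without replicate 1 labelled knockout, and Ube2v2 to 0.42 without WT replicate 1. Over the fits without 1 library, the ranges were -0.50 to 0.23 for Clk1, -0.30 to 1.01 for Clk3, -0.27 to 0.08 for Prpf4b, -0.60 to 0.42 for Ube2v2 and -0.17 to 0.15 for Ogt. Ube2v2 was not tested after thinning, and DESeq2 gave no adjusted p for Clk2, Clk3, Ube2v2 and Rit1. Leaving out 1 library put the summed CLK ratio between -0.55 and 0.02. Over all genes, 121 calls became 12 with DESeq2, 38 after thinning, and 3 to 108 when 1 library was left out. Of the pathway genes, 1 (Prpf3) was called with total counts alone, with limma-voom and with the bias-adjusted form. The cause of these changes was not tested. Libraries of the same number did not deviate together (r = -0.06 over 5878 genes), and the numbers are used here to name samples only. Counting noise weakens such a correlation, and a shared litter or batch was not tested. The replicate block left 76 calls over all genes and 0 among the 10. The number of counted reads, which lies far under the reads sequenced for a reason not stated, limits Clk2, Clk3, Ube2v2 and Rit1 most, with 8 to 24 counts per library.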
